A study of Homo sapiens with 8 samples.

Results

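The kallikrein-related peptidases are secreted serine proteases whose genes lie side by side on chromosome 19. Described here are KLK5, KLK6, KLK7, KLK8, KLK10, KLK11 and KLK13, 7 of the 15 kallikreins of the cluster and of 19775 genes measured. They were chosen by symbol with their log2 differences between YAP shRNA and control shRNA arrays already known, so those differences are given as a description, with no p-value. Expression was measured in HuCCT1, an established human line of bile duct cancer (cholangiocarcinoma), on 8 arrays. A control shRNA vector was carried in 4 samples and the vector labelled YAP shRNA 1, directed against YAP1, in the other 4. All 8 samples received doxycycline, which switches the shRNA on, at 100 ng/ml from 3 days before seeding. Only 1 shRNA against YAP1 was used, and the labels do not say whether the replicates were separate cultures, so that every spread and p-value below is that between these samples and may be technical.

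Kallikreins are made as inactive precursors and are switched on by cleavage, often by one another, so that several of them can act as a cascade. In the outer skin KLK5, KLK7 and KLK8 cleave the junctions that hold dead cells together, and Kazal-type inhibitors hold KLK5 and KLK7 in check. KLK6 and KLK10 are produced by many glandular epithelia and are often altered in carcinomas. The comparison asks which of these genes differ when YAP1, the coactivator that the Hippo pathway restrains, is knocked down.

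Of the 7 genes, KLK6 and KLK10 were higher with the YAP shRNA, by 1.96-fold and 1.74-fold, and KLK5, KLK7, KLK8, KLK11 and KLK13 differed by no more than 0.13 on the log2 scale. These are levels in RNA from whole cultures, in which a change in the number of expressing cells and a change in RNA per cell cannot be told apart. YAP1 itself was lower by 4.41-fold in the same arrays (limma adjusted p = 6.15e-07), at a log2 difference of -2.14 and a standard error of 0.056. The series title speaks of overexpression, whereas the YAP1 signal was lower in every array labelled YAP shRNA than in any control array.

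The bases just before the annotated starts of KLK6 and of its neighbours on either side are shown because KLK6 was higher while KLK5 and KLK7 were not. They come from the RefSeq promoter table of GRCh38.p14, on the minus strand, and each run is the 250 bases before the start that lies at the outer end of the gene, read 5′ to 3′. Capitals mark matches to GGAATG or its complement CATTCC, the core letters bound by TEAD factors, the DNA-binding partners of YAP, or to CACCTG or its complement CAGGTG, an E-box bound by SNAI and ZEB repressors.
KLK5, chr19:50953039-50953288: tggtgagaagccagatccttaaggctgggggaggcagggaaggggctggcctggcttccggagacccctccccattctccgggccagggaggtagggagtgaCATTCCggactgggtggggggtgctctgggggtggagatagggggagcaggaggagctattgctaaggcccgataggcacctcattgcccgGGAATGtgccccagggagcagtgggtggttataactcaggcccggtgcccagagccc
KLK6, chr19:50969592-50969841: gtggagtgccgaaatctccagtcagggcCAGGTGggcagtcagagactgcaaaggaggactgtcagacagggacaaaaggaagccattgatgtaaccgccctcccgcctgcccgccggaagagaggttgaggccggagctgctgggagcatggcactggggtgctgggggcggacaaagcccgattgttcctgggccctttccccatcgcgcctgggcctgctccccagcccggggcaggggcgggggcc
KLK7, chr19:50984065-50984314: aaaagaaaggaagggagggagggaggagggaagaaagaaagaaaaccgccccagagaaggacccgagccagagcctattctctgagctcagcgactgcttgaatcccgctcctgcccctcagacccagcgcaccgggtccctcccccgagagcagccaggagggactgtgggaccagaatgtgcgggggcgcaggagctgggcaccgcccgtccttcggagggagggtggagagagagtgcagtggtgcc

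The table held 11 windows for 6 of the 7 genes. The TEAD letters stood in 1 of the 11, that of KLK5, at 148 and 57 bases before the start, and among all 35116 windows of this length 11.9% held them. Neither the KLK6 window nor the 2 KLK10 windows held the TEAD letters. The KLK10 windows are not printed because they overlap the annotated gene, and KLK8 had no window. The E-box letters stood in 3 windows, 1 each of KLK6, KLK7 and KLK11, and in 17.5% of all windows, with the KLK6 match 222 bases before the start. The KLK7 match lay 10 bases before the start of another KLK7 window, which is not printed. Windows of the same gene overlap one another for KLK7, KLK10 and KLK13. The AP-1 letters TGANTCA and the Grainyhead-like letters AACCNGTT, each searched on both strands, were in 0 of the 11 windows, against 6.57% and 1.49% of all windows. The motifs do not overlap in letters. A match is a description of these letters and not a binding site, and the absence of one says only that the letters are not in this window.

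KLK6, also called neurosin, is a trypsin-like peptidase first studied in the nervous system and abundant in several carcinomas. Its log2 signal in control shRNA replicates 1 to 4 was 6.32, 6.33, 6.20 and 6.31, and in YAP shRNA replicates 1 to 4 it was 7.13, 7.30, 7.28 and 7.32. All 4 YAP shRNA arrays stood above all 4 control arrays, and the arrays of a group lay close together. The means were 6.29 ± 0.062 and 7.26 ± 0.086 (SD, n = 4 and 4), a difference of 0.97 with a standard error of 0.055. Ordered by log2 difference from the most positive, KLK6 was number 74 of the 19775 genes. A single probe set represents KLK6, so no other probe set bears on this value.

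KLK10, known as normal epithelial cell-specific 1 because it was found as a transcript lost in breast cancer cells, stood at 10.15, 10.07, 10.01 and 10.43 in the control arrays and at 10.84, 10.99, 11.02 and 11.005 in the YAP shRNA arrays. The groups did not overlap. Control shRNA replicate 4 was the control array nearest to the YAP shRNA arrays. The means were 10.16 ± 0.188 and 10.96 ± 0.085 (SD, n = 4 and 4), a difference of 0.80 with a standard error of 0.093, or 0.89 without control shRNA replicate 4. KLK10 was number 121 in the same order. The other KLK10 probe set, dimmer in every array, gave 5.73, 5.31, 5.39 and 5.96 in the control arrays and 6.62, 6.41, 6.62 and 6.75 in the YAP shRNA arrays. Its groups did not overlap either, and its difference was 1.00 with a standard error of 0.145 in a fit over all probe sets.

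**Figure D1:**
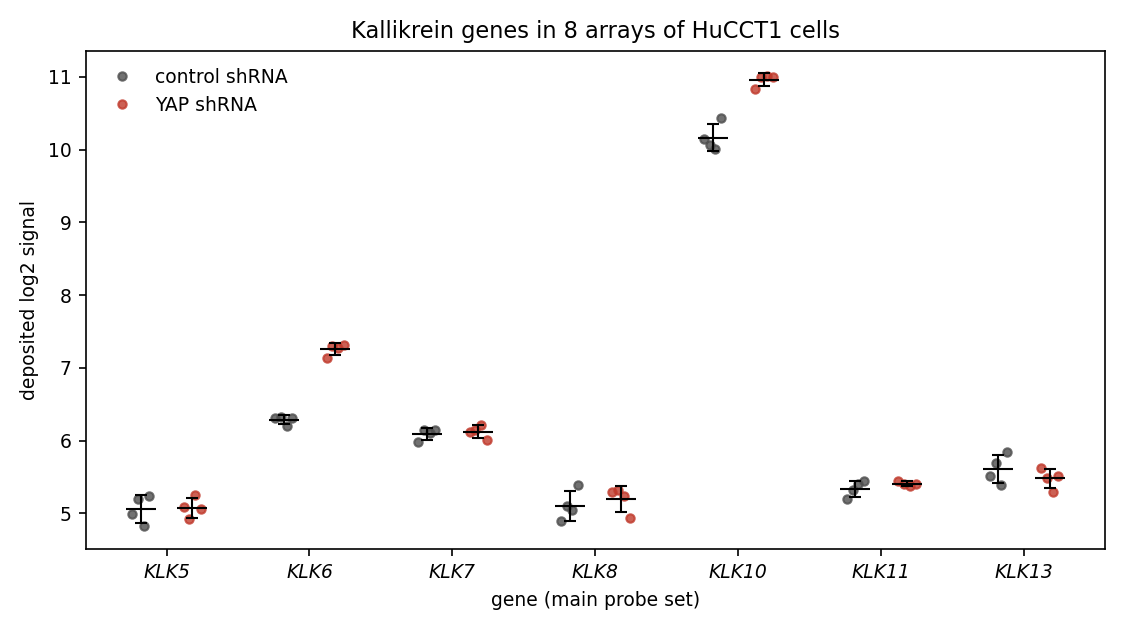
Deposited log2 signal (vertical axis) of the main probe set of each kallikrein gene (horizontal axis) in the 4 control shRNA arrays (grey) and the 4 YAP shRNA arrays (red), with the group mean and SD in black. KLK6 and KLK10 have groups that do not overlap, while the groups of the other 5 genes do.

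KLK5 and KLK7, which together shed the outermost skin cells, showed differences far smaller than those of KLK6 and KLK10. KLK5, a trypsin-like peptidase that can activate other kallikreins, lay between 4.82 and 5.24 in the control arrays and between 4.92 and 5.25 in the YAP shRNA arrays. The KLK5 difference was 0.02 with a standard error of 0.105. KLK7, a chymotrypsin-like peptidase, lay between 5.98 and 6.15 in the control arrays and between 6.01 and 6.22 in the YAP shRNA arrays, a difference of 0.03 with a standard error of 0.059. The other KLK7 probe set gave -0.01 with a standard error of 0.129. The groups overlapped for both genes.

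KLK8, or neuropsin, which acts in skin and at synapses, lay between 4.89 and 5.39 in the control arrays and between 4.93 and 5.33 in the YAP shRNA arrays. Its difference was 0.09 with a standard error of 0.120, and its other probe set gave 0.05 with a standard error of 0.163. KLK11, a trypsin-like peptidase, lay between 5.19 and 5.44 and between 5.37 and 5.45, with a difference of 0.07 and a standard error of 0.058. The range of the KLK11 YAP shRNA arrays fell almost wholly within that of the control arrays. KLK13 was the only gene of the 7 with a negative difference, -0.13 with a standard error of 0.105, from 5.61 ± 0.197 to 5.48 ± 0.134 (SD, n = 4 and 4). Its other probe sets gave 0.17 and -0.01, so the sign differed between probe sets of KLK13.

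**Figure D2:**
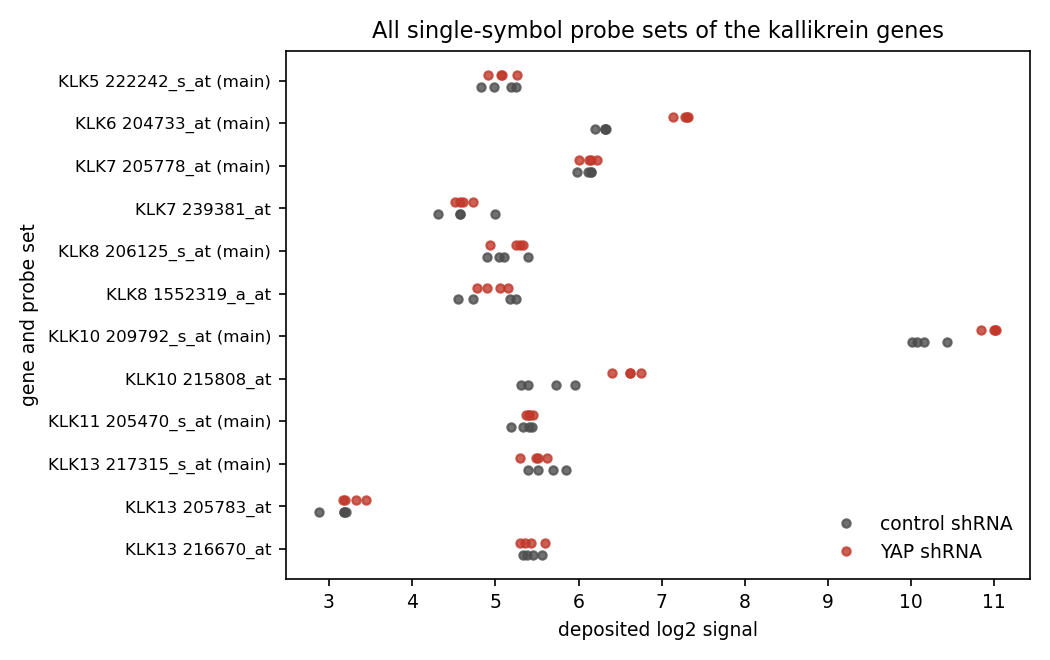
Deposited log2 signal (horizontal axis) of all 12 probe sets with 1 symbol for the kallikrein genes (vertical axis), with the 4 control shRNA arrays in grey and the 4 YAP shRNA arrays in red. Both KLK10 probe sets and the KLK6 probe set separate the groups, and KLK13 shows no common direction.

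For description only, KLK6 and KLK10 were past the threshold set for all 19775 genes (limma, Benjamini-Hochberg adjusted p below 0.05), 0 of the 7 genes were past it as lower and 5 were not past it. Of all genes tested 16.7% were called, 9.49% as higher and 7.17% as lower. The groups did not overlap, with the YAP shRNA arrays above, for 2 of the 7 genes and for 13.4% of all genes. Nothing is read from these counts, since the genes were chosen with the contrast known. The median log2 difference was 0.07 over the 7 genes and 0.01 over all genes. The deposited values carry no detection call. KLK10 alone had a mean level above the median of all gene means, 7.44, and KLK5 lay below their 25th percentile, 5.15. The 5 genes not called held values from 4.82 to 6.22. KLK6 had a mean of 6.29 in the control arrays, close to the top of that range. Whether those 5 transcripts, or that of KLK6 in the control arrays, were present at all was not tested.

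The remaining kallikreins of the cluster were mostly dim as well. Of 8 listed, all but KLK9 had a probe set with 1 symbol. Of these 7 genes 1 rose, 0 fell and 6 did not pass the test, or 14.3% called against 16.7% of all genes. Their median log2 difference was 0.05. The gene that rose was KLK1, the tissue kallikrein that releases kinins from kininogen. KLK1 stood at 7.86, 7.69, 7.69 and 7.87 in the control arrays and at 8.19, 8.09, 8.23 and 8.07 in the YAP shRNA arrays. The groups did not overlap, and KLK1 rose by 0.37 (standard error 0.062; limma adjusted p = 0.00442). Its only probe set ends in _s_at. KLK2, KLK3, KLK4, KLK12, KLK14 and KLK15 had log2 differences between -0.08 and 0.10 that did not pass. KLK3 encodes prostate-specific antigen, and KLK4 is a peptidase of enamel formation. The division into these genes and the 7 was made with the results known.

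The kallikreins that were higher did not lie next to one another. Among the measured genes, in the order of the RefSeq gene table, KLK6 is followed by KLK7 and KLK8 before KLK10 is reached. KLK7 and KLK8 had differences of 0.03 and 0.09. KLK9, which had no probe set with 1 symbol, is left out of this order. KLK5 precedes KLK6 and KLK11 follows KLK10, with 0.02 and 0.07. KLK1 lies at the far end of the cluster, and KLK15, next to it, had a difference of 0.09. Among the 10 genes listed on each side of the cluster, 6 had a probe set with 1 symbol, and 0 of the 6 passed limma's test or had an unadjusted p under 0.05. Over the 10 nearest measured genes on each side, a choice made after the data were seen, 2 of 20 rose, the deubiquitinase gene JOSD2 by 0.17 and ETFB, of the mitochondrial electron transfer flavoprotein, by 0.18 (limma adjusted p = 0.0129 and 0.0173). The 1320 measured genes of chromosome 19 had a median log2 difference of 0.01, and 95 of them rose and 45 fell. Of all genes measured 9.49% rose and 7.17% fell.

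**Figure D3:**
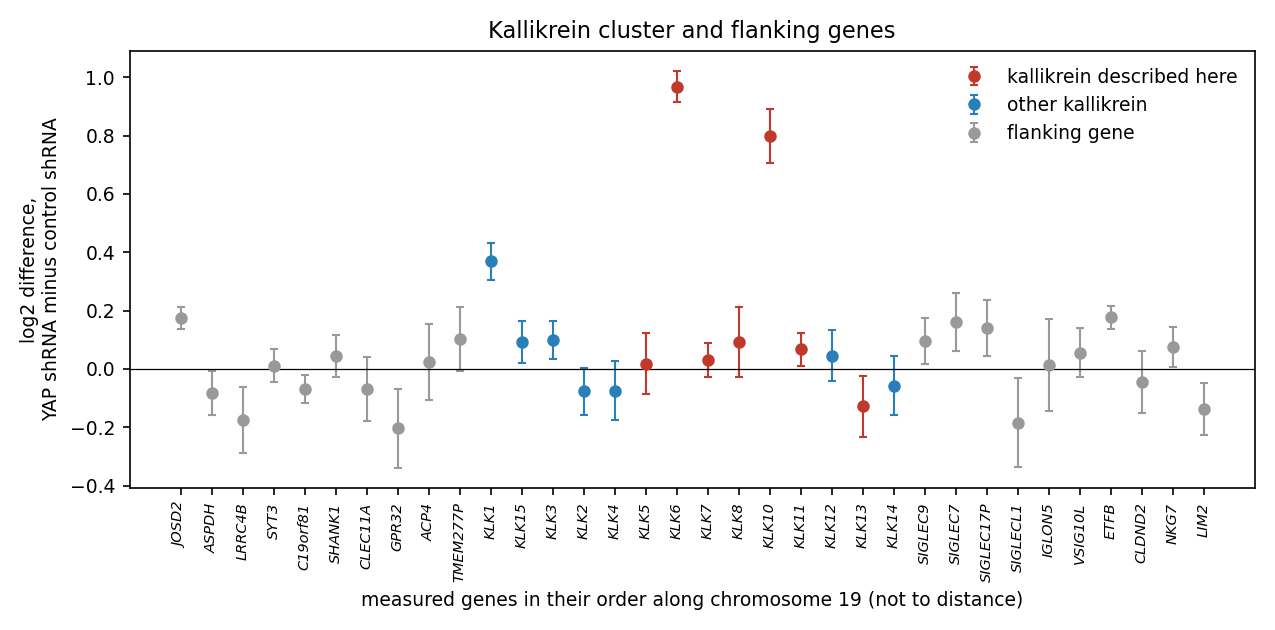
Log2 difference, YAP shRNA minus control shRNA (vertical axis), with its standard error for the measured genes of the kallikrein cluster and 10 measured genes on each side, in their order along chromosome 19 (horizontal axis, not to distance). KLK6 and KLK10 stand at 0.97 and 0.80, KLK1 at 0.37, and the other genes between -0.20 and 0.18.

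Among the inhibitors that restrain secreted serine proteases, WFDC2, SLPI and SPINT1 were among those that rose, and SPINK4 fell. Of 13 measured of 17 listed inhibitors, 5 rose and 1 fell, with a median log2 difference of 0.19, where 9.49% of all genes rose and 7.17% fell. WFDC2, a whey acidic protein-domain secretory protein, rose by 0.70 (limma adjusted p = 0.00120), or by 0.37 as the mean of all its probe sets. SPINT1, the membrane-bound inhibitor of matriptase and hepsin, rose by 0.39 (limma adjusted p = 0.00204). SLPI, the secretory leukocyte protease inhibitor, lay between 10.38 and 10.44 in 3 control arrays, at 11.15 in control shRNA replicate 4 and between 11.18 and 11.38 in the YAP shRNA arrays. SLPI was higher by 0.69 (limma adjusted p = 0.0225), a call lost without any of control shRNA replicates 1, 2 and 3 or YAP shRNA replicates 1, 3 and 4 (adjusted p from 0.0546 to 0.0643). Without control shRNA replicate 4 the SLPI difference was 0.87 (limma adjusted p = 8.12e-05). SPINK4, a Kazal-type inhibitor of goblet cells, was the 1 inhibitor that fell, by 1.05 (limma adjusted p = 0.000137). Its group means were 7.95 ± 0.179 and 6.90 ± 0.063 (SD, n = 4 and 4). With the replicate number as a block, 3 inhibitors were called in place of 6, and SLPI was not among them (limma adjusted p = 0.0563).

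Several of the membrane-anchored and secreted proteases that can act upstream of or beside kallikreins rose. Of 16 measured of 17 listed, 6 rose and 0 fell, or 37.5% called against 16.7% of all genes. Their median log2 difference was 0.03, against 0.01 over all genes. TMPRSS2, a membrane serine protease of secretory epithelia, stood between 7.54 and 7.91 in the control arrays and between 8.89 and 9.04 in the YAP shRNA arrays. It rose 2.36-fold, by 1.24 (standard error 0.076; limma adjusted p = 3.6e-05), and by 0.61 as the mean of all its probe sets. TMPRSS4, of the same family, rose by 0.71 (limma adjusted p = 0.00342). ST14, which encodes matriptase, an activator of prostasin and of other epithelial proteases, rose by 0.40 (limma adjusted p = 0.000338).

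Among known kallikrein substrates and the receptors they cleave, MMP9, DSG3 and IL1B rose the most. Of 21 measured of 24 listed, 5 rose and 1 fell, or 28.6% called against 16.7% of all genes, with a median log2 difference of 0.12. MMP9, a gelatinase made as a precursor, rose by 1.41 and DSG3, a desmosomal cadherin, by 1.40 (limma adjusted p = 0.000324 and 2.23e-05). MMP9 had no probe set outside those ending in _x_at or _s_at, and DSG3 rose by 1.15 as the mean of all its probe sets. IL1B, a cytokine released from its precursor by cleavage, rose by 1.04 (limma adjusted p = 8.89e-06). Its group means were 9.99 ± 0.032 and 11.03 ± 0.069 (SD, n = 4 and 4). NRG1, a growth factor whose membrane-bound form KLK8 cleaves in brain, fell by 1.01 (limma adjusted p = 0.000105). On its brightest probe set outside those ending in _x_at or _s_at, which can cross-hybridise or match several transcripts, NRG1 stood at -0.01 and was not called (limma adjusted p = 0.981), and the mean of all its probe sets was -0.28. CDSN and DSG1, junction proteins that KLK5 and KLK7 cleave in skin, had differences of 0.13 and 0.16 and did not pass (limma adjusted p = 0.332 and 0.0580).

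Transcription factors tied to kallikrein expression or to epithelial differentiation were measured beside them. Steroid, vitamin and thyroid hormone receptors act on several kallikrein genes, and of 12 measured of 13 listed, 1 rose and 1 fell, with a median log2 difference of 0.09. That is 16.7% called, the same share as over all genes, so the list did not stand apart from the background. VDR, the vitamin D receptor, rose by 0.51 and NR3C1, the glucocorticoid receptor, fell by 0.29 (limma adjusted p = 0.000310 and 0.00418). Without probe sets ending in _x_at or _s_at, VDR had no probe set and NR3C1 stood at -0.10 (limma adjusted p = 0.814), which left 0 of 10 receptors called. Without control shRNA replicate 1, 4 receptors were called. Of 14 measured of 15 listed factors of epithelial differentiation, 6 rose and 0 fell, or 42.9% called against 16.7% of all genes. Their median log2 difference was 0.11. The called share depends on level, and 4 of the 14 factors lay below the median of all gene means. Without genes below the median level, 5 of 10 factors and 3888 of 9888 genes were called. GRHL3, a Grainyhead-like factor of barrier formation, stood between 4.96 and 5.33 in the control arrays and between 6.39 and 6.61 in the YAP shRNA arrays, a rise of 1.31 (limma adjusted p = 3.66e-05). ELF3, an ETS factor of epithelia, rose by 0.98 and OVOL1, a zinc finger factor, by 0.60 (limma adjusted p = 0.000284 and 0.00120).

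**Figure D4:**
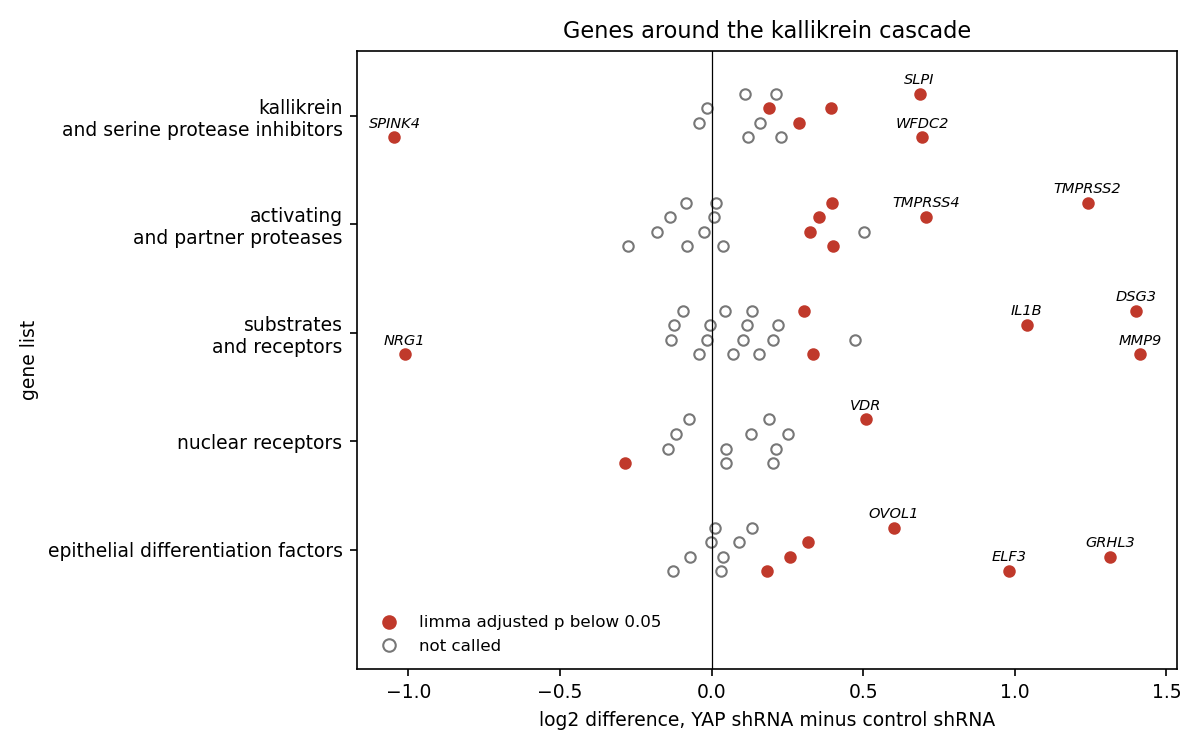
Log2 difference, YAP shRNA minus control shRNA (horizontal axis), of each measured gene in 5 lists (vertical axis, spread within a list for legibility only), with genes called by limma at an adjusted p below 0.05 filled red and called genes beyond 0.45 named. The called genes lie to the right of 0 except SPINK4, NRG1 and NR3C1, at -1.05, -1.01 and -0.29.

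Since kallikreins are abundant in skin, markers of keratinocytes were read beside KLK6 and KLK10. Of 14 such markers 2 rose and 0 fell, or 14.3% called against 16.7% of all genes, with a median log2 difference of 0.06. FLG, CDSN, DSG1 and DSC1 are also among the substrates. The mean log2 level of the list ran from 5.14 to 5.40 in the control arrays and from 5.39 to 5.48 in the YAP shRNA arrays. The 2 were the cornified envelope precursors SPRR1B and SPRR3, higher by 1.54 and 0.61 (limma adjusted p = 0.000608 and 0.0217). The call on SPRR3 was lost without control shRNA replicate 1 or 2 or YAP shRNA replicate 1, 2 or 3 (adjusted p from 0.0523 to 0.0616), and also with the replicate number as a block (limma adjusted p = 0.0754). The mean levels of the 14 genes ran from 2.80 for FLG, filaggrin, to 10.76 for KRT10, a keratin of differentiating epidermis, neither of which passed, and 11 of the 14 lay below the median of all gene means. In the lowest and second of 4 equal bins of level, 2.37% and 11.1% of all genes were called. Of 9 measured biliary epithelial markers 3 rose and 0 fell, or 33.3% called against 16.7% of all genes. Their median log2 difference was -0.02. KRT7, KRT8, KRT18, SOX9 and ONECUT1 differed by -0.08 to -0.02 and EPCAM by 0.01, none of them called. KRT7, KRT19, KRT8, KRT18, EPCAM and SOX9 had mean levels of 12.60 to 14.18. MUC1, CFTR and ONECUT1 had mean levels of 8.74, 6.09 and 5.19. CFTR, MUC1 and KRT19 rose by 1.07, 0.67 and 0.15 (limma adjusted p = 0.00128, 0.00221 and 0.0137), CFTR by 0.25 as the mean of all its probe sets. The call on KRT19 was lost with the replicate number as a block (limma adjusted p = 0.0848). Among markers of other cells, 0 of 7 hepatocyte and 0 of 6 endothelial markers were called by limma (1 of each at an unadjusted p under 0.05). Of 7 fibroblast markers 1 rose (COL1A1, by 0.52), or 14.3% called. Of 5 leukocyte markers CD14 and LYZ rose by 0.46 and 0.86 while PTPRC fell by 0.22, or 60% called against 16.7% of all genes. All 5 lay below the median of all gene means, with CD14 at 6.19, LYZ at 6.76 and PTPRC at 3.85. The call on PTPRC was lost without control shRNA replicate 2, 3 or 4 or YAP shRNA replicate 2, 3 or 4 (adjusted p from 0.0663 to 0.111) and with the replicate number as a block (limma adjusted p = 0.116). Without probe sets ending in _x_at or _s_at the PTPRC difference was -0.04 and that of LYZ 0.49 (limma adjusted p = 0.785 and 0.0559). SPRR3, MUC1 and COL1A1 had no probe set outside those endings. With all probe sets averaged COL1A1 rose by 0.29. The part of these marker changes in the values of KLK6 and KLK10 was not tested.

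The genes whose pattern over the 8 arrays was most like that of KLK10, by Pearson correlation, were HLA-E, SLC44A4, HSD17B2, ANPEP and IDH2, with r from 0.995 to 0.996. For KLK6 they were IL1B, PLAU, RTP4, GNA15 and GSN, with r from 0.995 to 0.997. The 8 points form 2 groups and the genes were picked as the highest among all genes measured, so r is a measure of likeness only. PLAU, which encodes urokinase, a secreted serine protease, stood between 12.53 and 12.59 in the control arrays and between 12.90 and 13.02 in the YAP shRNA arrays. HSD17B2, an oxidative steroid dehydrogenase, differed by 1.23, and GSN, the actin-severing gelsolin, by 0.91, or 0.34 as the mean of its probe sets. ANPEP, aminopeptidase N, differed by 0.83 on its main probe set and by -0.01 on the brightest one outside those ending in _x_at or _s_at.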

How the data were processed

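Total RNA of 8 HuCCT1 samples was amplified (NuGEN) and biotin-labelled for the arrays, per the labels' protocols. The deposited table holds log2 values of 54675 Affymetrix probe sets. They run from 1.72 to 14.9, from which the base of the logarithm is taken, and how the authors corrected and normalized them is not given in the sources used here. Array medians lay between 6.22 and 6.25, and the values were used as deposited. GEO's platform annotation gave 41097 probe sets 1 symbol. The brightest probe set on average stood for each of 19775 genes. limma 3.58.1 in R 4.3.3 compared YAP shRNA with control shRNA without a block, with Benjamini-Hochberg adjustment over all genes. It was tested on simulated data. The number of arrays limits the precision. The genes named are the 14 kallikreins measured, YAP1, up to 3 risen and 3 fallen genes of each list, and the 5 genes most like KLK10 (the brightest) and KLK6 (the largest difference). CDSN, DSG1, FLG, KRT10, JOSD2 and ETFB were named after their values were seen, as were the biliary markers that were not called. The genes described and all lists were chosen with earlier results of these data known. Levels of different probe sets are not comparable. Promoter windows came from a RefSeq table (GRCh38.p14). Figures were drawn with matplotlib 3.10.9.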

Additional observations from a re-analysis of the deposited data

Results flagged for a closer look

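In 98 groups of 4 arrays, from 49 named genes, 9 held a single array well apart from its group, and about 4.9 such cases arise by chance. KLK6 was low in control shRNA replicate 3 at 6.20, with the other control arrays at 6.31 to 6.33. KLK10 was low in YAP shRNA replicate 1 at 10.84, with the others at 10.99 to 11.02. KLK2 was low in YAP shRNA replicate 2 at 5.24 (5.30 in the others), and GNA15 was low in YAP shRNA replicate 1 at 9.22 (9.24 to 9.25). YAP1 was high in control shRNA replicate 3 at 12.77 (12.59 to 12.61) and NRG1 in YAP shRNA replicate 4 at 7.46 (7.24 to 7.27). In control shRNA replicate 4, SLPI was high at 11.15 (10.38 to 10.44), SLC44A4 at 7.73 (7.49 to 7.51) and IDH2 at 8.0004 (7.82 to 7.83).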

How the results depend on the processing

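KLK6 and KLK10 kept their direction in every alternative in which they were measured. Leaving out each array in turn moved the KLK6 difference between 0.94 and 1.01 and that of KLK10 between 0.75 and 0.89. Without probe sets ending in _x_at or _s_at, KLK10 stood at 1.00, 0 other kallikreins were called (KLK1 had no such probe set) and 0 nuclear receptors. Without genes below the median level, which removes KLK6, KLK10 was the only described kallikrein left to test, and it was called. In that setting 3888 of 9888 genes were called, beside 5 of 7 inhibitors and 5 of 7 partner proteases. Of the substrates and receptors 6 of 11 were called there, and of the nuclear receptors 3 of 7. Over all genes 3294 of 19775 were called, against 5580 of 54675 probe sets when every probe set was tested. Of the genes, 1785 were called at an adjusted p below 0.01, 2106 with the replicate block and 2381 to 3881 with an array left out. The replicate block called 3 inhibitors in place of 6. Same-numbered arrays had correlations of -0.21 to 0.00 between their deviations, and 0 arrays were most like the other group's array of their own number, so the numbers were not taken to pair the samples. Nuclear receptors called numbered 4 with array weights, 4 at an adjusted p below 0.10 and 2 to 4 with an array left out. The count of cluster neighbours was 2 when the nearest measured genes were taken. ANPEP reversed to -0.015 without probe sets ending in _x_at or _s_at. Where no value shows it, the cause was not tested.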

Other observations

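Arrays sometimes held exactly the same deposited value for a gene, to the last digit given. This was so in 3 of the 7 kallikreins. KLK7 stood at 6.15 in 3 arrays and KLK11 at 5.41 in 3 arrays, and KLK13 at 5.51 in 2, across both groups. KLK5, KLK6, KLK8 and KLK10 held 8 distinct values. Over all genes, identical values in at least 2 arrays occurred in 40.5% of genes in the lowest of 4 equal bins of level, 24.8% of the second, 9.18% of the third and 10.1% of the highest. In the same bins limma called 2.37%, 11.1%, 30.8% and 22.4% of genes. KLK6 lies in the second bin and KLK10 in the highest.

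A probe set of KLK4 that is not its main one lay between 4.85 and 4.998 in the control arrays and between 5.06 and 5.20 in the YAP shRNA arrays, with a difference of 0.19 and a standard error of 0.057. The 4 other KLK4 probe sets had differences of -0.07, 0.16, 0.14 and 0.12. It was singled out after its values were seen.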
